A study of Bos taurus with 6 samples.

Results

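The 8 imprinted growth genes and noncoding RNAs described here are H19, MEG3, CDKN1C, PEG3, PLAGL1, PEG10, MEST and NNAT, chosen by name from a list of imprinted genes. They are 8 of the 22839 gene symbols in the deposited counts (23015 rows), and all 8 were among the 15039 rows that passed the filter on low counts. The counts came from longissimus thoracis (LT) muscle of Hanwoo (Korean native cattle) steers with a high or a low number of fine marbling particles (NFMP), the small flecks of fat within the muscle. The high-NFMP group held steers 3-8, 10-8 and 10-9, aged 32.5, 33.8 and 34.5 months, and the low-NFMP group held steers 3-1, 3-3 and 10-16, aged 37.8, 33.7 and 35.4 months. Each steer gave 1 library of whole muscle, so the spread between libraries is the spread between animals together with that of library making. All steers were raised conventionally on commercial feeds, and the groups differ in the marbling trait itself, not in a treatment. The libraries were made by a 3′ mRNA method, so reads come mostly from the last part of a transcript. The counts summed to 16283873 in steer 3-8, 16530745 in 10-8, 16798460 in 10-9, 17179629 in 3-1, 16791858 in 3-3 and 17192750 in 10-16. Normalized counts are these counts scaled to a common library size, given as mean ± SD over n = 3 steers a group. Log2 fold changes (log2 FC) are high minus low NFMP from edgeR, with their standard errors (SE), and adjusted p-values are Benjamini-Hochberg values over the 15039 rows.

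An imprinted gene is transcribed mainly from the copy inherited from a given parent, because DNA methylation laid down in the egg or sperm marks the parental copies differently. Many imprinted genes lie in clusters in which a noncoding RNA and protein-coding genes are transcribed from opposite parental copies, and as a group they are known for their part in fetal and placental growth. In skeletal muscle several of them, H19, IGF2, DLK1 and MEG3 among them, are known from work on muscle development and regeneration, and the callipyge muscle hypertrophy of sheep maps to the cluster of DLK1 and MEG3. The counts do not separate the parental copies, so they give the total transcript level of each gene and not its imprinting.

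The LT label fitted the muscle markers, which were the most abundant transcripts of all the marker lists. The normalized counts of 8 skeletal muscle markers summed to between 707540 in steer 3-8 and 1221671 in steer 10-8. ACTA1, the skeletal muscle actin, was the most abundant. Of the 8, 0 had an unadjusted p below 0.05 between the groups in edgeR, DESeq2 or limma. In edgeR 11.5% of all tested rows did. The 8 adipocyte markers summed to 15831, 13769 and 11604 normalized counts in steers 3-8, 10-8 and 10-9, against 10344, 10756 and 10662 in steers 3-1, 3-3 and 10-16. All high-NFMP steers lay above all low-NFMP steers in this sum, but this rested on GPD1, the most abundant gene of the list, which muscle fibres also express. Without GPD1, left out after the values were seen, the sums were 11474, 5732 and 3948 in the high-NFMP steers, against 4699, 5430 and 4272 in the low-NFMP steers, so that steer 3-8 was far the highest and steer 10-9 the lowest. All 8 adipocyte markers had a positive log2 FC, with a median of 0.54. An unadjusted p below 0.05 in edgeR was reached by 2 of the 8 genes, ADIPOQ and CIDEC, against 11.5% of all tested rows. Their log2 FC were 0.63 and 0.89, with an adjusted p above 0.05 in edgeR. Without steer 3-8 these were 0.36 and 0.45, with unadjusted p of 0.101 and 0.0416. With age as a term the unadjusted p were 0.269 and 0.0883. A fit that allowed for labels beginning with 3 or 10 gave log2 FC of 0.77 and 1.04. The adjusted p in that fit were 0.127 for ADIPOQ and 0.0483 for CIDEC (edgeR), so CIDEC passed the threshold there. The unadjusted p was below 0.05 in 12 of 14 alternatives for ADIPOQ and in 13 of 14 for CIDEC. PLIN1, LEP and FABP4 were each highest in steer 3-8. The satellite cell and regenerating fibre markers summed to 3244, 3741 and 3440 normalized counts in steers 3-8, 10-8 and 10-9, against 5314, 4813 and 2569 in steers 3-1, 3-3 and 10-16, with MYH3 the most abundant. In whole muscle, fewer cells of a type and less RNA per cell cannot be told apart, and the part of these marker differences in the results on the imprinted genes was not tested.

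Between the groups, 0 of the 8 imprinted genes passed the call used by the study (more than a 2-fold change at an unadjusted p below 0.05) in edgeR, where 3.90% of the 15039 rows did (586 rows). At an adjusted p below 0.05 the count was also 0 of 8, against 0.685% of the rows (103 rows). At an unadjusted p below 0.05 alone it was 1 of 8, CDKN1C, against 11.5% of the rows. DESeq2 and limma after quantile normalization also gave 0 called, 0 at the adjusted and 1 at the unadjusted threshold. The values of the groups did not overlap for 3 of the 8 genes, CDKN1C, PLAGL1 and MEST, all higher in the high-NFMP group, whereas the groups did not overlap in 17.1% of all rows. When library totals were used without TMM factors, the groups overlapped for PLAGL1 and MEST, which left 1 of 8, CDKN1C, against 17.5% of the rows. With 3 steers a group an exact permutation test cannot go below p = 0.1. The log2 FC was positive for 7 genes and negative for MEG3, with a median of 0.39 against 0.02 over all tested rows. The spread was unequal: H19 and PEG10 varied by 5.03-fold and 6.14-fold between steers and PLAGL1 by 1.37-fold.

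**Figure D1:**
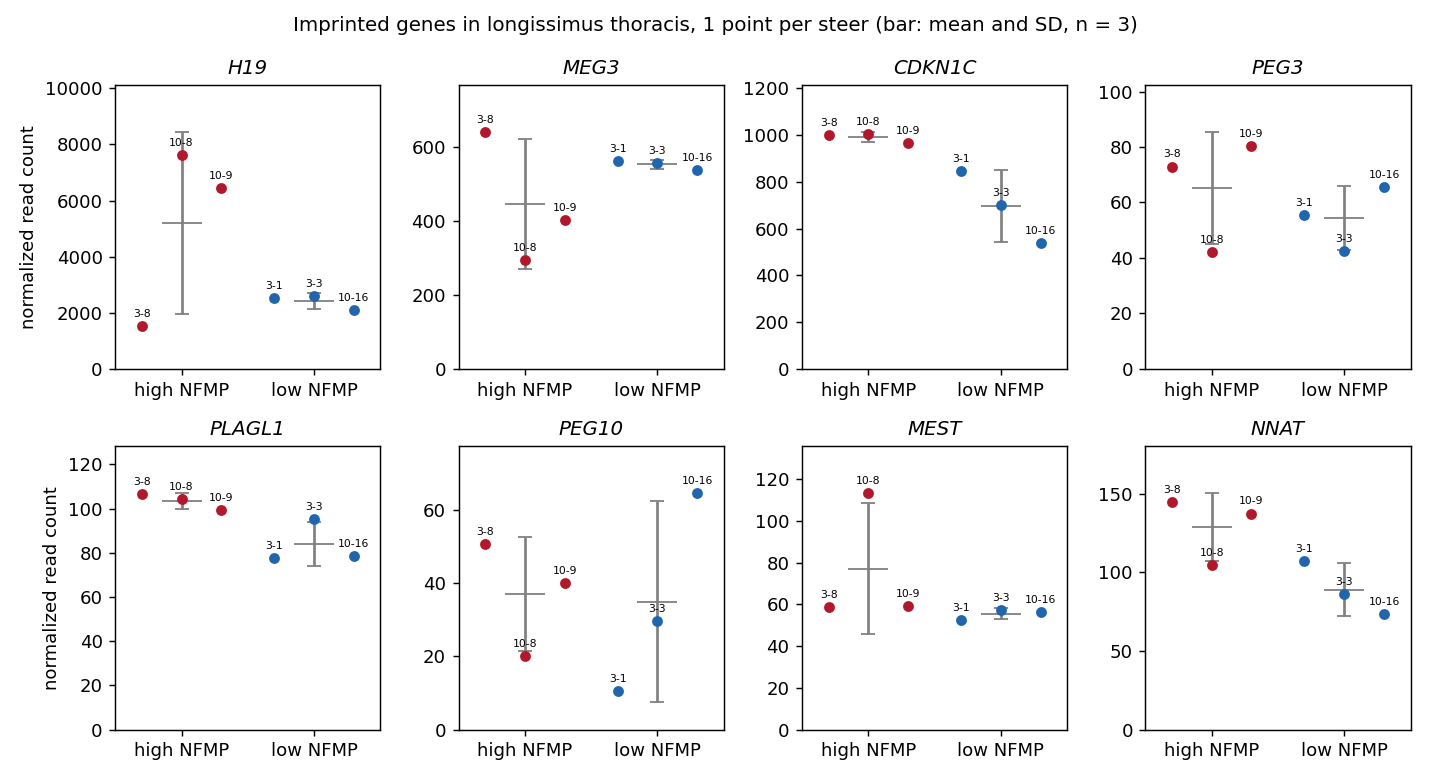
Normalized read counts (vertical axis, from 0) of the 8 imprinted genes in LT of each steer, with red points for the high-NFMP and blue points for the low-NFMP group and grey bars for the mean and SD of 3 steers. The H19 point of steer 3-8 (1518) lies apart from those of steers 10-8 and 10-9 (7632 and 6431), and the CDKN1C points of the groups do not overlap.

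H19 is a noncoding RNA transcribed from the maternal copy, and it shares its control region with IGF2, the gene of insulin-like growth factor 2. Its normalized counts were 1518 in steer 3-8, 7632 in 10-8 and 6431 in 10-9, and 2539, 2608 and 2089 in steers 3-1, 3-3 and 10-16. The high-NFMP group therefore held both the lowest and the 2 highest of the 6 values, and the low-NFMP steers lay close together in between. The means were 5194 ± 3239 and 2412 ± 282, and the log2 FC of 1.11 (SE 0.55, 95% interval -0.21 to 2.42) was not significant (adjusted p = 0.515, edgeR). The lowest count, 1498 in steer 3-8, carries a counting error of 2.58%, which does not cover the noise of library making.

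The H19 comparison rested on steer 3-8. Without that steer the log2 FC was 1.54 (SE 0.18) with an adjusted p of 0.0135 in edgeR, past the threshold. Over all alternatives its adjusted p ran from 0.0135 to 0.854. Steer 3-8 is the only high-NFMP steer whose label begins with 3. Without it, group and the first number of the label are largely confounded: steers 10-8 and 10-9 stand against 3-1, 3-3 and 10-16. Without steer 10-8 the log2 FC was 0.77. Among steers whose label begins with 3, the high-NFMP steer lay below the mean of the 2 low-NFMP steers by a log2 difference of -0.76, whereas among those beginning with 10 the 2 high-NFMP steers lay above the low-NFMP steer by 1.75. The labels do not say what their first number stands for. With that number as a term in the fit, the log2 FC of H19 was 0.50 (adjusted p = 0.854, edgeR). Steer 3-8 also had the highest adipocyte marker sum and the lowest muscle marker sum of the 6 libraries, and the part of either in its H19 value was not tested.

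IGF2, transcribed from the paternal copy of the same domain, did not follow H19 in steer 3-8. Its normalized counts were 2826, 4148 and 2426 in the high-NFMP steers and 2312, 2643 and 2034 in the low-NFMP steers. Steer 10-8 was again the highest and the groups overlapped, with a log2 FC of 0.43 (SE 0.22, adjusted p = 0.475, edgeR). It was 0.20 without steer 10-8 and 0.60 without steer 10-9, with unadjusted p of 0.330 and 0.0175. The ratio of H19 to IGF2 normalized counts was 0.537 in steer 3-8, 1.84 in 10-8 and 2.65 in 10-9, and 1.10, 0.987 and 1.03 in the low-NFMP steers. This ratio was thus nearly constant in the low-NFMP group (SD 0.0564) and spanned 4.94-fold in the high-NFMP group.

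MEG3, the maternally expressed noncoding RNA of the DLK1-DIO3 domain, had 640.5, 294.5 and 404.2 normalized counts in steers 3-8, 10-8 and 10-9. In steers 3-1, 3-3 and 10-16 it had 563.6, 557.1 and 539.1. Steer 3-8 was the highest and steer 10-8 the lowest of the 6, the reverse of their H19 values, and the low-NFMP steers differed by only 1.05-fold. The means were 446.4 ± 177 in the high-NFMP and 553.3 ± 12.7 in the low-NFMP group, with a log2 FC of -0.31 (SE 0.25, adjusted p = 0.666, edgeR). The value depended on the high-NFMP steers included. Without steer 3-8 the log2 FC was -0.66 (unadjusted p = 0.00725, adjusted p = 0.191, edgeR) and without steer 10-8 it was -0.06 (unadjusted p = 0.794, adjusted p = 0.957). The fit without steer 3-8 holds no high-NFMP steer with a label beginning with 3. The difference was 0.19 on the log2 scale among steers with a label beginning with 3 and -0.63 among those beginning with 10. The ratio of H19 to MEG3 normalized counts was 2.37 in steer 3-8, 25.9 in 10-8 and 15.9 in 10-9, and 4.50, 4.68 and 3.87 in steers 3-1, 3-3 and 10-16. The opposite placing of both noncoding RNAs in steers 3-8 and 10-8 made this ratio span 10.9-fold over the 6 libraries, and it was looked at after the values had been seen.

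**Figure D2:**
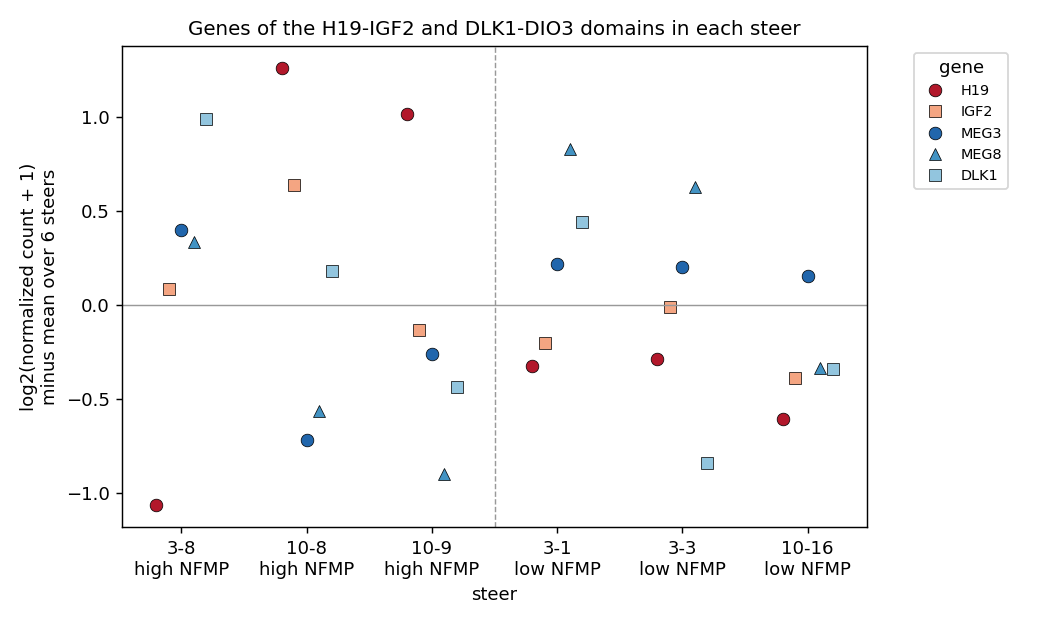
Deviation of each gene from its own mean over 6 steers (vertical axis, log2 of the normalized count + 1) for genes of the H19-IGF2 and DLK1-DIO3 domains, with 1 column of points per steer and a dashed line between the groups. H19 and MEG3 lie on opposite sides of their means in all 6 steers.

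The other transcripts of the DLK1-DIO3 domain varied widely between steers too. MEG8, a further maternally expressed noncoding RNA, had 748.9, 402.3 and 317.9 normalized counts in the high-NFMP steers and 1058, 919.8 and 470.5 in the low-NFMP steers. The groups overlapped, and the log2 FC of -0.74 (SE 0.37, adjusted p = 0.494, edgeR) had the sign of that of MEG3. With a steer left out it ran from -0.49 without 10-9 (unadjusted p = 0.215) to -1.18 without 3-8 (unadjusted p = 0.00476), with -0.99 without 10-16 (unadjusted p = 0.00539). With the label number as a term it was -0.39 (unadjusted p = 0.0585, edgeR), and in DESeq2 -0.74 (unadjusted p = 0.0238). All steers with a label beginning with 3 had more MEG8 than all those beginning with 10. The difference between the groups was -0.40 on the log2 scale among the former and -0.39 among the latter. Without steer 3-8 all high-NFMP labels begin with 10, and without steer 10-16 all low-NFMP labels begin with 3. DLK1, a paternally expressed transmembrane protein of the EGF-repeat family that restrains adipocyte differentiation, had 486.4, 276.7 and 180.5 normalized counts in the high-NFMP steers. In the low-NFMP steers it had 332.0, 136.0 and 192.8. Steer 3-8 was the highest for DLK1, as it was for MEG3, and the log2 FC was 0.51 (SE 0.40, adjusted p = 0.666, edgeR) with overlapping groups. It was 0.05 without steer 3-8 and 0.93 without steer 3-1, with unadjusted p of 0.894 and 0.0271. DIO3, the enzyme that inactivates thyroid hormone, had between 2.22 normalized counts in steer 10-8 and 32.4 in steer 3-3. RTL1 and MEG9 did not pass the filter on low counts.

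CDKN1C encodes p57, an inhibitor of cyclin-dependent kinases that holds back cell division and is expressed from the maternal copy. Its normalized counts were 1001, 1006 and 966.8 in steers 3-8, 10-8 and 10-9, and 845.9, 701.4 and 539.1 in steers 3-1, 3-3 and 10-16. All 3 high-NFMP steers lay above all 3 low-NFMP steers. The high-NFMP steers differed from each other by 1.04-fold, whereas the low-NFMP steers differed by 1.57-fold. The former ratio was smaller than in all but 0.49% of the tested rows when 1 is added to each normalized count. The highest count, 988 in steer 3-8, carries a counting error of 3.18%, so the 1.04-fold range is within counting error. The means were 991.2 ± 21.3 and 695.5 ± 153, a 1.42-fold difference with a log2 FC of 0.51 (SE 0.20, 95% interval 0.09 to 0.93). The unadjusted p was 0.0199 and the adjusted p 0.326 in edgeR, so the difference failed the correction for the rows tested. Without steer 10-16, the lowest, the log2 FC was 0.39 with an unadjusted p of 0.0877 (adjusted p = 0.578, edgeR), and with library totals alone it was 0.44 with 0.0535 (adjusted p = 0.465, edgeR). The difference had the same sign among steers with a label beginning with 3 (0.37 on the log2 scale) and with 10 (0.87).

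Of 8 other genes listed in the KCNQ1-CDKN1C domain, 6 had a row and 5 passed the filter. Of the 5, 0 reached an unadjusted p below 0.05 in edgeR, DESeq2 or limma. In edgeR 11.5% of all tested rows did. All 5 log2 FC were positive, from 0.05 for TSSC4 to 0.95 for PHLDA2, which limits placental growth and had between 5.55 and 14.2 normalized counts in each library. For PHLDA2 the groups did not overlap, and its adjusted p was 0.558 in edgeR. CD81, a tetraspanin of the cell surface, had a log2 FC of 0.34 (SE 0.18), and its groups did not overlap either. The same held for 17.1% of all tested rows. KCNQ1, a potassium channel gene that neighbours CDKN1C, had a log2 FC of 0.23 (SE 0.23) with its highest value, 2132 normalized counts, in steer 3-8. Among the relatives of CDKN1C, CDKN1B (p27) had a log2 FC of 0.51 (SE 0.19, adjusted p = 0.317) and CDKN1A (p21) of -0.58 (SE 0.43, adjusted p = 0.664) in edgeR. The unadjusted p of CDKN1B was 0.0180. With age as a term its log2 FC was 0.39 (unadjusted p = 0.157), and without steers 3-1 and 3-3 it was 0.41 and 0.49 (unadjusted p = 0.0927 and 0.0553).

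PEG3, a zinc-finger protein expressed from the paternal copy, had 73.0, 42.2 and 80.2 normalized counts in steers 3-8, 10-8 and 10-9. Its values in steers 3-1, 3-3 and 10-16 were 55.5, 42.6 and 65.6. The lowest steers of both groups, 10-8 and 3-3, were nearly equal, and the groups overlapped over most of their range. The log2 FC was 0.26 (SE 0.35, adjusted p = 0.813, edgeR), and it ran from 0.09 to 0.52 with a steer left out. Among steers with a label beginning with 3 the difference was 0.57 on the log2 scale, and among those beginning with 10 it was -0.10. At between 38 and 80 counts a library, the 95% interval of -0.48 to 1.00 allows up to a doubling in the high-NFMP group. ZIM2, the listed PEG3 neighbour with a row, did not pass the filter. APEG3 and MIR2900 overlap PEG3 in the RefSeq annotation of ARS-UCD2.0. Without known stranding, whether some of their reads were counted for PEG3 is not known.

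PLAGL1, also known as ZAC1, is a paternally expressed zinc-finger transcription factor. It had 106.4, 104.5 and 99.3 normalized counts in the high-NFMP steers and 77.5, 95.3 and 78.7 in the low-NFMP steers. The groups did not overlap, although the gap between steers 10-9 and 3-3 was small and was lost with library totals alone. PLAGL1 had the lowest pooled SD of the 8 genes, 0.12 on the log2 scale (4.60th percentile of the tested rows). Its lowest and highest counts, 78 and 105, carry counting errors of 11.3% and 9.76%, so this SD does not rank steadiness between animals. The relative spread beyond counting error in edgeR was 22.5% for PLAGL1, above the 18.6% of CDKN1C and the 22.3% of MEG3. The log2 FC of PLAGL1 was 0.30 (SE 0.26, adjusted p = 0.691, edgeR), and it stayed between 0.17 and 0.40 under all alternatives run. ZC2HC1B, which has a row of its own in the counts, overlaps PLAGL1 from start to end of the genes in the RefSeq annotation of ARS-UCD2.0. The sources used here do not say whether counting was stranded, so whether some reads of ZC2HC1B were counted for PLAGL1 is not known.

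PEG10, a paternally expressed gene derived from a retrotransposon and needed for placenta formation, had 50.7, 20.0 and 40.1 normalized counts in steers 3-8, 10-8 and 10-9. In steers 3-1, 3-3 and 10-16 it had 10.5, 29.6 and 64.6. The low-NFMP group held both the lowest and the highest value, so the groups overlapped throughout. The values of that group spanned 6.14-fold, and the 11 counts of steer 3-1 carry a counting error of 30.2%. The means were 36.9 ± 15.6 and 34.9 ± 27.4, and the log2 FC of 0.09 (SE 0.56, adjusted p = 0.966, edgeR) had no stable sign. It was -0.55 with age as a term, and with a steer left out it ran from -0.35 without 3-1 to 0.90 without 10-16. The difference was 1.34 on the log2 scale among steers with a label beginning with 3 and -1.10 among those beginning with 10.

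The 9 other genes listed in the PEG10 domain all passed the filter. In edgeR 1 was higher and 1 lower at an unadjusted p below 0.05, against 11.5% of all tested rows. In DESeq2 and limma ASB4 also passed that threshold. Its log2 FC was 0.69 (SE 0.33, adjusted p = 0.465, edgeR), and its groups overlapped. PON1, a paraoxonase, had 45.6, 71.1 and 60.2 normalized counts in the high-NFMP steers and 28.7, 6.48 and 35.3 in the low-NFMP steers. Its groups did not overlap and its log2 FC was 1.33 (SE 0.49, unadjusted p = 0.0175, adjusted p = 0.316, edgeR), past the call of the study. Without steer 3-3 it was 0.87 and without steer 10-8 it was 1.21, with unadjusted p of 0.0549 and 0.0530. CASD1, a sialic acid acetyltransferase, was lower in all 3 high-NFMP steers, with a log2 FC of -0.53 (SE 0.22, adjusted p = 0.364, edgeR). Without steer 10-9 or steer 10-16 its log2 FC was -0.36 or -0.35, with unadjusted p of 0.114 and 0.171. SGCE, the direct neighbour of PEG10, had a log2 FC of 0.12 (SE 0.45), and PON3 differed by 11.5-fold between its lowest and highest steer.

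MEST (PEG1), a paternally expressed member of the alpha/beta-hydrolase family used as a marker of fat expansion in mice, had 58.8, 113 and 59.2 normalized counts in the high-NFMP steers. The low-NFMP steers had 52.6, 57.4 and 56.5. Steer 10-8 stood alone, and the other 5 steers lay between 52.6 and 59.2. The groups did not overlap, by a gap of 58.8 against 57.4 that is within counting error and was lost with library totals alone. The log2 FC of 0.47 (SE 0.34, adjusted p = 0.635, edgeR) was 0.12 without steer 10-8. MEST shares sequence positions with COPG2 and MIR335 in ARS-UCD2.0, and the log2 FC of COPG2 was -0.09 (SE 0.30).

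NNAT (neuronatin), a small paternally expressed proteolipid of the endoplasmic reticulum known from neurons and adipocytes, had 144.9, 104.5 and 137.4 normalized counts in steers 3-8, 10-8 and 10-9. It had 107.2, 86.1 and 73.7 in steers 3-1, 3-3 and 10-16. Steer 10-8 lay just below steer 3-1, which is the whole overlap of the groups. The means were 128.9 ± 21.5 and 89.0 ± 16.9, with a log2 FC of 0.53 (SE 0.27, 95% interval -0.04 to 1.11, adjusted p = 0.472, edgeR). The unadjusted p was 0.0648. It was below 0.05 in 3 of 14 alternatives (0.0321 without steer 10-8, 0.0478 without steer 3-1 and 0.0331 with the label number as a term) and otherwise as high as 0.166, without steer 10-16, with log2 FC between 0.44 and 0.70. NNAT overlaps BLCAP in the annotation. BLCAP itself had a log2 FC of -0.09 (SE 0.20), and the ratio of NNAT to BLCAP normalized counts was 0.0719, 0.0531 and 0.0732 in the high-NFMP steers and 0.0438, 0.0383 and 0.0473 in the low-NFMP steers. The ratios of the groups did not overlap, a comparison chosen after the values had been seen.

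**Figure D3:**
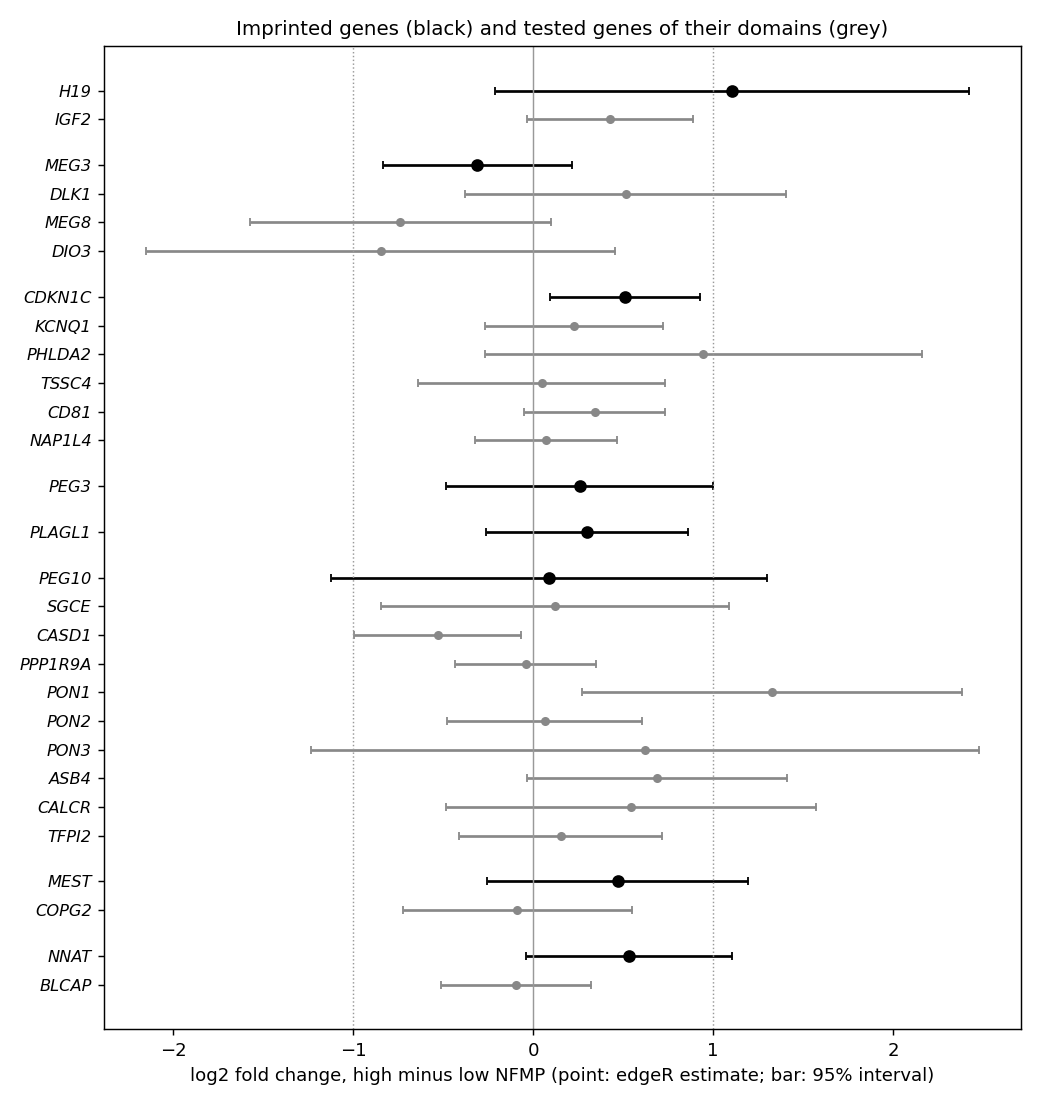
Log2 fold change, high minus low NFMP (horizontal axis, points are edgeR estimates and bars are 95% intervals), of the 8 imprinted genes (black) and the tested genes of their domains (grey), with dotted lines at a log2 FC of -1 and 1. The intervals of CDKN1C, PON1 and CASD1 do not include 0.

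The spread of the 8 genes between libraries was compared with that of all tested rows. The pooled SD of log2(normalized count + 1) within groups was 0.91 for H19 and 1.01 for PEG10 (95.3rd and 96.7th percentiles of the tested rows). It lay between 0.12 and 0.41 for the other 6 genes, and the median of the 8 was 0.39 against 0.33 over all rows. The biological coefficient of variation (BCV) in edgeR, the relative spread between animals beyond counting error, was 45.2% for H19, where the trend at its abundance was 19.8%. That ratio of 2.29 was at the 99.5th percentile of the tested rows, and the 46.0% of PEG10, against a trend of 35.0%, gave a ratio of 1.31 at the 95.5th percentile. H19, PEG10 and MEG3 lay above their trend, 3 of 8 genes, as did 34.3% of all tested rows.

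The place of the spread differed between genes. H19 and MEG3 varied within the high-NFMP group, by 5.03-fold and 2.17-fold, and little within the low-NFMP group, by 1.25-fold and 1.05-fold. With 1 added to each normalized count, the ratio of H19 within the high-NFMP group was at the 98.0th percentile of all tested rows, and 53 (0.488%) of the 10868 rows with a mean of at least 50 normalized counts had a ratio at least as large. CDKN1C varied less within the high-NFMP group, by 1.04-fold, which is within counting error, than within the low-NFMP group, by 1.57-fold. PEG10 varied widely in both, by 2.53-fold in the high-NFMP and 6.14-fold in the low-NFMP group. No single steer was extreme for all genes: steer 10-8 was the highest for H19, CDKN1C and MEST and the lowest for MEG3 and PEG3, and steer 3-8 was the highest for MEG3, PLAGL1 and NNAT and the lowest for H19.

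The rows whose values over the 6 libraries were most like each gene were found by the root mean square distance of the centred log2 values. For H19 the closest rows were C1H21orf2, LOC112445516 and WFIKKN2, at distances of 0.30, 0.32 and 0.35, while H19 itself deviated from its mean by 0.85. For MEG3 they were ESCO1, SLTM and TOGARAM1 (0.07, 0.07 and 0.08), and for CDKN1C they were PLEKHM3, CCDC107 and ASTN2 (0.04, 0.07 and 0.08). Among the rows closest to NNAT were IGF1R and NLGN1 (0.07 and 0.09), and closest to PEG10 lay SLC30A3, GALNT15 and ABCA9 (0.23, 0.26 and 0.37). PEG3 was closest to ROBO4 (0.07), PLAGL1 to RAD51B (0.03) and MEST to PRPF19 (0.06). None of these rows is on the lists of imprinted genes, and H19 and PEG10 had no row as close as those of the other 6 genes. H19 and PEG10 also deviated most from their own means, by 0.85 and 0.84, against 0.18 to 0.38 for the other 6. The distance is not scaled to this deviation, so it does not show that their profiles are more unusual.

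Of 52 other genes on the list of imprinted genes and their neighbours, 44 had a row and 35 were tested. At an unadjusted p below 0.05 in edgeR, 2 had a higher and 1 a lower level with high NFMP, against 11.5% of all tested rows. Past the call of the study was 1 of them (PON1), against 3.90% of the rows. At an adjusted p below 0.05 there were 0, against 0.685% of the rows. DESeq2 and limma each gave 5 at the unadjusted threshold, and DESeq2 gave 1, GRB10, at the adjusted threshold where limma gave 0. Their median log2 FC was 0.08. The gene with the smallest p was GRB10, an adaptor protein that binds and dampens the insulin and IGF1 receptors, with 1631, 1976 and 1886 normalized counts in the high-NFMP steers and 1315, 971.6 and 1011 in the low-NFMP steers. All 3 high-NFMP steers lay above the low-NFMP steers, with a log2 FC of 0.74 (SE 0.19, adjusted p = 0.103, edgeR). Its adjusted p ran from 0.0265 in DESeq2 to 0.376 without steer 3-3. IGF2R, the receptor that clears IGF2, had a log2 FC of -0.44 (SE 0.22, adjusted p = 0.465, edgeR), and GNAS, which encodes the stimulatory G protein alpha subunit and had the most counts on that list, of -0.37 (adjusted p = 0.482). MAGEH1, on that list, is an X-linked relative of imprinted genes and not itself known as imprinted. INS, ASCL2, KCNQ1OT1, USP29, MIMT1, ZIM3, CPA4 and HYMAI and the 21 listed microRNA genes in or beside the imprinted genes were not analysed here.

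A further list held 10 genes related to the imprinted genes by family or as receptors. INSR, the insulin receptor, alone of them reached an adjusted p below 0.05, against 0.685% of all tested rows in edgeR. It had 1936, 1772 and 2134 normalized counts in the high-NFMP steers and 997.1, 928.1 and 1163 in the low-NFMP steers, a 1.89-fold difference without overlap (log2 FC 0.92, SE 0.18, adjusted p = 0.0301, edgeR). Its adjusted p ran from 0.000569 to 0.205 and was below 0.05 in 6 of 14 alternatives, but in none of those that left out a steer (0.0523 to 0.190). With a steer left out its log2 FC stayed between 0.85 and 1.05, and 2 of these fits passed the call of the study. IGF1R, the receptor through which IGF2 acts, had a log2 FC of 0.60 (SE 0.20, unadjusted p = 0.0101, adjusted p = 0.256, edgeR), and its groups did not overlap after TMM normalization but did with library totals alone.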

How the data were processed

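RNA sequencing counts of LT muscle from 6 Hanwoo steers, 1 library each, were analysed, with groups taken from the sample labels. The authors deposited raw read counts per gene symbol from 3′ mRNA libraries. Their methods name Tophat2 with HTSeq in one place and Bowtie2 with unique and multiple alignments in another, and the submitters' processing notes list Bowtie2 and bedtools. Which of these made the counts, and whether reads were counted by strand, the sources used here do not say.

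In R 4.3.3, edgeR 4.0.16 was run on all rows: its default filter with the group (minimum count 10, minimum total 15), TMM factors between 0.916 and 1.08, robust dispersions and the quasi-likelihood test of high against low NFMP. Tested rows held at least 99.8% of every library. Adjustment was by Benjamini-Hochberg over the tested rows, and no p was adjusted over the imprinted genes alone. Called means more than a 2-fold change at an unadjusted p below 0.05. Standard errors came from the log2 FC and the F statistic, and the spread used log2(normalized count + 1). Counting errors are Poisson and cover counting alone. In chi-square comparisons of all pairs of libraries, every pair differed by at least 35.7 per row, where sampling noise gives about 1. The procedure was also run on simulated data, but no result of that run is reported here.

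All 8 imprinted genes were described. From the other lists, some but not all genes of the same domains were named. Genes past a call and the most abundant gene were named too, as were the closest rows in likeness (mean of at least 50 normalized counts). Of these closest rows, 1 is not reported here. Other genes and the gene ratios were chosen after their values were seen. The imprinted genes and the lists were chosen with earlier results of these data known. Neighbours came from the RefSeq table of ARS-UCD2.0, which matched all 8 genes. It is not the build of the counts, so no coordinates are given. As alternatives, the filter was dropped or set to 10 counts in each of the 6 libraries, and TMM was replaced by RLE factors or by library totals. DESeq2 1.42.0 and limma 3.58.1 (after quantile normalization) replaced edgeR, age or the leading label number entered as a term, each steer was left out, and the spread was recomputed with a pseudocount of 10.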

Additional observations from a re-analysis of the deposited data

How the results depend on the processing

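Of 112 recomputed log2 FC of the 8 imprinted genes, 101 kept their sign and their side of an unadjusted p of 0.05, 5 passed it, 2 no longer did and 4 changed sign. The 4 were all of PEG10: -0.55 with age as a term and -0.21, -0.35 and -0.02 without steers 3-8, 3-1 and 3-3. With each steer left out it ran from -0.35 to 0.90. The cause was not tested. The imprinted genes called, and those at an adjusted p below 0.05, were 0 to 1 with each steer left out, the 1 being H19 without steer 3-8. Those at an unadjusted p below 0.05 were 0 with library totals alone, 2 with the label number as a term, and 0 to 3 with a steer left out. The groups did not overlap for 3 genes, and for 1 with library totals alone, a comparison added after the values were seen. The median spread of 0.39 was 0.35 with a pseudocount of 10.

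Over all rows, 586 were called, 969 without the filter and 364 with at least 10 counts in every library. At an adjusted p below 0.05 there were 103 rows, 240 without the filter, 291 in DESeq2 and 31 with age as a term, and 28 (without 3-3) to 82 (without 3-1) with a steer left out. No paired analysis was possible because replicate numbers follow accession order. Leaving out a steer leaves 2 against 3. Without steer 3-8 all high-NFMP labels begin with 10, and without steer 10-16 all low-NFMP labels begin with 3. PEG10, PEG3 and MEST had between 11 and 102 counts a library, where counting error adds to the spread between steers, and the age of the groups overlaps only in part, so age and NFMP are not fully separable.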

Other observations

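Genes that place, keep, read or remove DNA methylation, among them those that protect imprinted regions, had log2 FC between -0.97 and 0.90. Of 16 listed, all had a row and 15 passed the filter. TRIM28 alone of the 15 had an unadjusted p below 0.05 (edgeR), against 11.5% of all tested rows. It is the corepressor that ZFP57 and ZNF445 bring to imprinted control regions. It had 886.7, 1128 and 1139 normalized counts in steers 3-8, 10-8 and 10-9 and 731.1, 831.0 and 829.9 in steers 3-1, 3-3 and 10-16. The groups did not overlap, and the log2 FC was 0.40 (SE 0.18, adjusted p = 0.425, edgeR), with an unadjusted p of 0.0449 that was above 0.05 in 9 of 14 alternatives. TET3, an enzyme that oxidizes methylated cytosine, had 11.1, 11.1 and 16.0 normalized counts in the high-NFMP steers and 21.1, 20.4 and 34.3 in the low-NFMP steers. The groups did not overlap, and its log2 FC was -0.97 (SE 0.48, adjusted p = 0.469, edgeR). UHRF1, the partner of DNMT1, had a log2 FC of 0.90 (SE 0.61, adjusted p = 0.611, edgeR) with overlapping groups and between 2.87 and 31.4 normalized counts in a library. ZFP57 itself, which reads the methylated mark, had a log2 FC of 0.38 (SE 0.31), DNMT1, the maintenance methyltransferase, of 0.00 (SE 0.23), and YY1, the most abundant of the list, of 0.00 (SE 0.19).

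Markers of satellite cells and regenerating fibres did not all lie in the same direction. Of the 6 tested, 5 had a negative and 1 a positive log2 FC, with a median of -0.22. In edgeR 2 of them, MYOG and MYMK, passed the call of the study, against 3.90% of all tested rows. MYOD1, CDH15 and MYH8 had log2 FC of -0.23, -0.11 and -0.21, and the groups did not overlap for MYH8. MYOG, the transcription factor of differentiating muscle cells, had 623.2, 514.5 and 606.8 normalized counts in the high-NFMP steers and 1607, 1599 and 609.8 in the low-NFMP steers. Steers 3-1 and 3-3 were high and steer 10-16 lay at the level of steer 10-9, with a log2 FC of -1.13 (SE 0.32, adjusted p = 0.186, edgeR) and an adjusted p that was 0.0171 in DESeq2, 0.0188 without steer 10-16 and up to 0.495 in the other alternatives. MYMK, a membrane protein of myoblast fusion, had at most 32.5 normalized counts in a library and a log2 FC of -1.41 (SE 0.56, adjusted p = 0.349, edgeR). MYF5, a transcription factor of satellite cells, did not pass the filter on low counts. Its 39.5, 28.9 and 10.0 normalized counts in the high-NFMP steers lay above the 6.70, 5.55 and 1.01 in the low-NFMP steers, the opposite direction to MYOG and MYMK. MYH3, the embryonic myosin and the most abundant of the list, had a log2 FC of 0.14 (SE 0.26), and PAX7 was not analysed here. With age as a term the log2 FC of MYMK was -0.63 with an unadjusted p of 0.354, and in the 5 alternatives with an unadjusted p above 0.05 its sign was kept. The macrophage markers summed to 873.5, 547.9 and 608.8 normalized counts in the high-NFMP steers and 448.8, 757.9 and 428.1 in the low-NFMP steers, with C1QA the most abundant. Of the 5 genes, 4 had a positive log2 FC, and CD163 had -0.56 (SE 0.48). For CSF1R, CD14 and C1QA the groups did not overlap, although with library totals alone they did for CD14 and C1QA. Over all tested rows the groups did not overlap in 17.1%, and in 17.5% with library totals alone. C1QA had a log2 FC of 0.73 (SE 0.30, unadjusted p = 0.0307, adjusted p = 0.377, edgeR), which was 0.20 with age as a term and 0.42 without steer 3-1. AIF1 alone of the 5 was called, against 3.90% of all tested rows. Its log2 FC was 1.04 (SE 0.44, adjusted p = 0.388, edgeR), which was 0.47 without steer 3-8 and 0.46 with age as a term. Of the 7 fibroblast and fibro-adipogenic progenitor markers, 5 had a positive and 2 a negative log2 FC, with a median of 0.23 and the highest, 0.59, for LUM. At an unadjusted p below 0.05 in edgeR was 1 gene of that list, against 11.5% of all tested rows. This gene, PDGFRA, a marker of fibro-adipogenic progenitors, went the other way. It had 362.8, 337.8 and 233.7 normalized counts in the high-NFMP steers and 383.7, 403.5 and 540.1 in the low-NFMP steers. The groups did not overlap, and its log2 FC was -0.51 (SE 0.22, unadjusted p = 0.0391, adjusted p = 0.408, edgeR), with an unadjusted p below 0.05 in 12 of 14 alternatives. Without steer 10-9 or 10-16 it was -0.32 or -0.31, with unadjusted p of 0.160 and 0.226. The fibroblast, endothelial and Schwann cell markers were led by DCN, PECAM1 and S100B. Their sums overlapped between the groups, at between 9646 and 15585, 933.5 and 1429, and 524.4 and 835.0 normalized counts.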
